A study of Mus musculus with 6 samples.

Results

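The genes described here encode the respiratory chain of the mitochondrion and its ATP synthase, split by the genome that carries them. The members were taken by gene symbol: every gene starting with mt-, and the nuclear genes starting with Ndufa, Ndufb, Ndufc, Ndufs, Ndufv, Uqcr, Cox4i, Cox5, Cox6, Cox7, Cox8 or Atp5 together with Sdha, Sdhb, Sdhc and Sdhd, leaving out the Ndufaf assembly factors. This gave 99 of the 31053 genes in the count tables, of which 13 are mitochondrial and 86 nuclear. The nuclear members comprise 38 genes of complex I, 4 of complex II, 8 of complex III, 18 of complex IV and 18 of complex V by their symbols.

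The libraries came from lungs of wild type C57BL6 mouse fetuses at E17, digested with Liberase, frozen in 10% DMSO and replated on diluted Matrigel, a basement membrane extract. All cells received a medium for haematopoietic progenitors with mTPO, IL6, SCF, FGF, VEGF and Flt3, and wells were washed on day 3. The suspension group holds the floating cells of culture days 4, 5 and 6, and the adherent group holds the attached cells of the same days, detached with Accutase and enriched by sorting for live VECAD+ cells, that is, cells with VE-cadherin, an adhesion protein of the endothelium, on their surface. There were 6 droplet libraries, 1 per group and day, and no genotype or drug differed between the groups. How many fetuses were pooled, and whether the days came from separate cultures, is not given in the sources used here. Each p-value therefore reflects library-to-library spread alone, which may be technical or come from the culture day. The comparison of fractions has no term for the day, so its spread, like each SD, includes change from day 4 to day 6.

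Sense counts over genes summed to between 36451255 and 57784974 per library, and 3 counts corresponded to 0.0594 to 0.0756 CPM, the unit of gene levels here: a count scaled to a library total of 1000000 with TMM factors. Each value covers a whole library, in which fewer cells of a type and less RNA per cell cannot be told apart. Cdh5, the gene of VE-cadherin, was at 79.0 to 226 CPM in adherent and 0.1 to 0.4 CPM in suspension libraries, a difference that the sort itself selected for. The 10 endothelial markers together took 0.0693% to 0.188% of adherent gene counts and 0.00116% to 0.00192% of suspension gene counts. The adherent libraries also held macrophage marker RNA: the 10 macrophage markers took 0.335%, 0.413% and 0.796% of gene counts on days 4, 5 and 6, against 1.72% to 1.87% in suspension. The 7 fibroblast markers took 0.251%, 0.352% and 0.311% of adherent gene counts on these days, and the 8 epithelial markers 0.0379% to 0.163%.

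Mitochondria keep a small circular genome that encodes core subunits of complexes I, III, IV and V, transcribed as long RNAs from both strands and then cut into messengers. All other subunits, and the whole of complex II, are encoded in the nucleus, made in the cytosol and imported. Electrons from NADH enter at complex I and those from succinate at complex II, pass through complex III and cytochrome c to complex IV, where oxygen is reduced, and the resulting proton gradient drives ATP synthase (complex V). Because the 13 mitochondrial messengers come from shared transcripts of 1 template, they are not independent of each other.

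Copies of mitochondrial DNA lie in the nuclear genome, and a read that matches a gene and its copy equally well cannot be assigned to either. Gene ends are shown because 3′ libraries read them, with mismatches in capitals. mt-Co2 (subunit 2 of complex IV, chrM:7013-7696) has an uninterrupted match of 681 bases to the pseudogene Gm28661 (chr1:24614885-24615565, minus strand), whereas the ends of mt-Cytb (the mitochondrial subunit of complex III, chrM:14145-15288) and mt-Nd6 (subunit 6 of complex I, chrM:13552-14070, minus strand) differ from their best copies. Coordinates are GRCm38, and each line gives 60 bases on the strand of the gene or copy, read 5′ to 3′ from GENCODE transcripts.
mt-Co2: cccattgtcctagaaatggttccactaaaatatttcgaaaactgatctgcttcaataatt
Gm28661: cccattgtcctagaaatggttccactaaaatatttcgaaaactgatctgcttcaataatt
mt-Cytb: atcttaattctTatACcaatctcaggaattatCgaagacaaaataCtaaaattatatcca
Gm11410: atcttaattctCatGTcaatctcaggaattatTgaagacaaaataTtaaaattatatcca
mt-Nd6: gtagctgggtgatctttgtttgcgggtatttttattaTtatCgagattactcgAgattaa
Gm11408: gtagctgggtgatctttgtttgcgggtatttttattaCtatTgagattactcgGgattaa

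A verbatim copy of every 50-base window of mt-Co2 was found in another annotated transcript. The share of windows with such a copy was 99.5% for mt-Atp6, 99.9% for mt-Co3, 98.8% for mt-Nd4l and 98.0% for mt-Nd3, all from a run of pseudogenes on chromosome 1. It was 62.2% for mt-Nd4, 51.1% for mt-Co1, 8.19% for mt-Nd2 and 7.61% for mt-Nd5. For mt-Nd1, mt-Nd6, mt-Cytb and mt-Atp8 no window had one, although mt-Atp8 lies between mt-Co2 and mt-Atp6 and overlaps the start of mt-Atp6.

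The counts followed this order in part. mt-Co2, mt-Atp6, mt-Co3, mt-Nd4l and mt-Atp8 had 2 to 680 counts per library, while mt-Nd3, whose copy Gm28438 differs by 1 mismatch in 345 bases, had 13836 to 79591. The 7 other mt- genes had 2967 to 1698777. Together the 6 genes in or beside near-identical copies made up 1.94% of all mt- counts, so levels of these 6 are uncertain and no order of abundance involving them should be read. None of the listed best copies is itself among the counted identifiers. Reads placed at several sites were 13.9% to 15.5% of all reads in suspension and 18.7% to 22.6% in adherent libraries, and their part in the mt- levels was not tested.

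**Figure D1:**
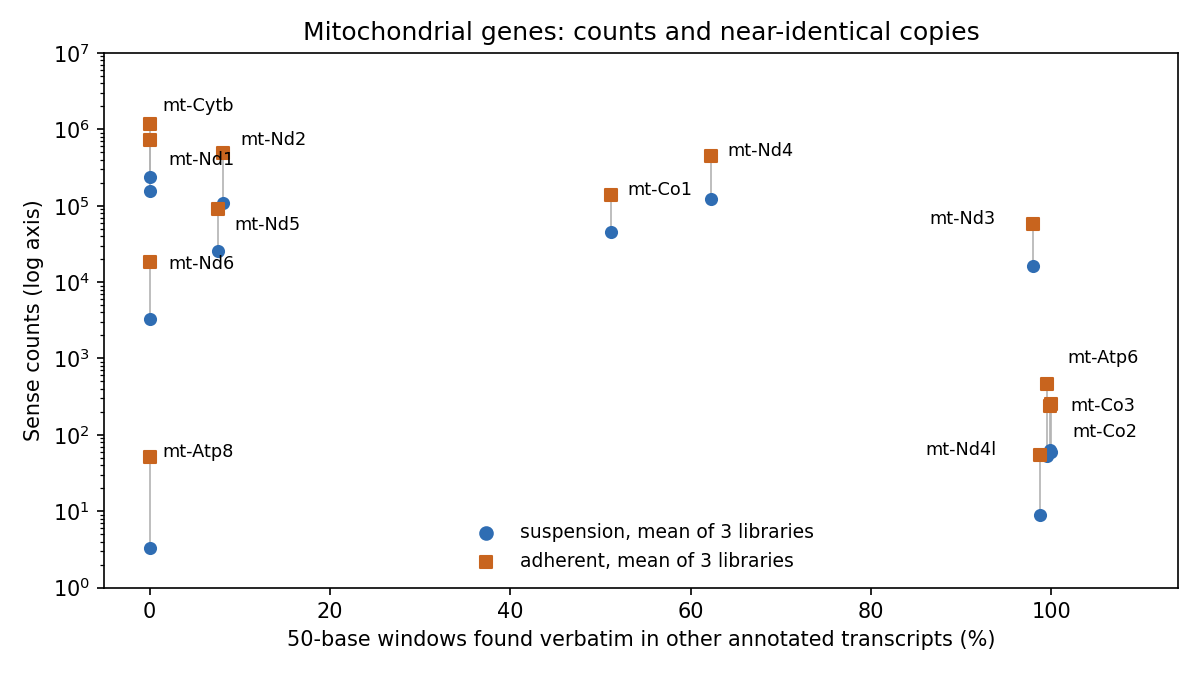
Sense counts (log axis, mean of 3 libraries per fraction) of each mitochondrial gene against the percent of its 50-base windows found verbatim in other annotated transcripts. The genes near 100% are at 680 counts or fewer per library except mt-Nd3, and the adherent mean (square) is above the suspension mean (circle) for every gene.

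Messengers of the mitochondrial genome took a far smaller part of the suspension libraries. Those of the nuclear subunits took about the same part of both fractions in the mean over days. mt- genes held 1.52%, 1.58% and 1.33% of sense gene counts in suspension on days 4, 5 and 6, and 11.4%, 7.44% and 5.78% in adherent libraries. The lowest adherent library was thus above the highest suspension library, and the adherent mean of 8.20% ± 2.88 (SD, n = 3) was 5.55 times the suspension mean of 1.48% ± 0.134 (SD, n = 3). The nuclear members held 2.42%, 2.26% and 2.16% in suspension and 2.17%, 2.34% and 2.38% in adherent libraries. These ranges overlapped, and the means of 2.28% ± 0.133 and 2.30% ± 0.110 (SD, n = 3 each) differed by less than that spread. Day by day, the suspension share was 1.12, 0.97 and 0.91 times the adherent one on days 4, 5 and 6. The total includes the mt- counts. Without them the nuclear members held 2.46%, 2.29% and 2.19% in suspension and 2.45%, 2.52% and 2.53% in adherent libraries. On that total suspension was lower on days 5 and 6.

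**Figure D2:**
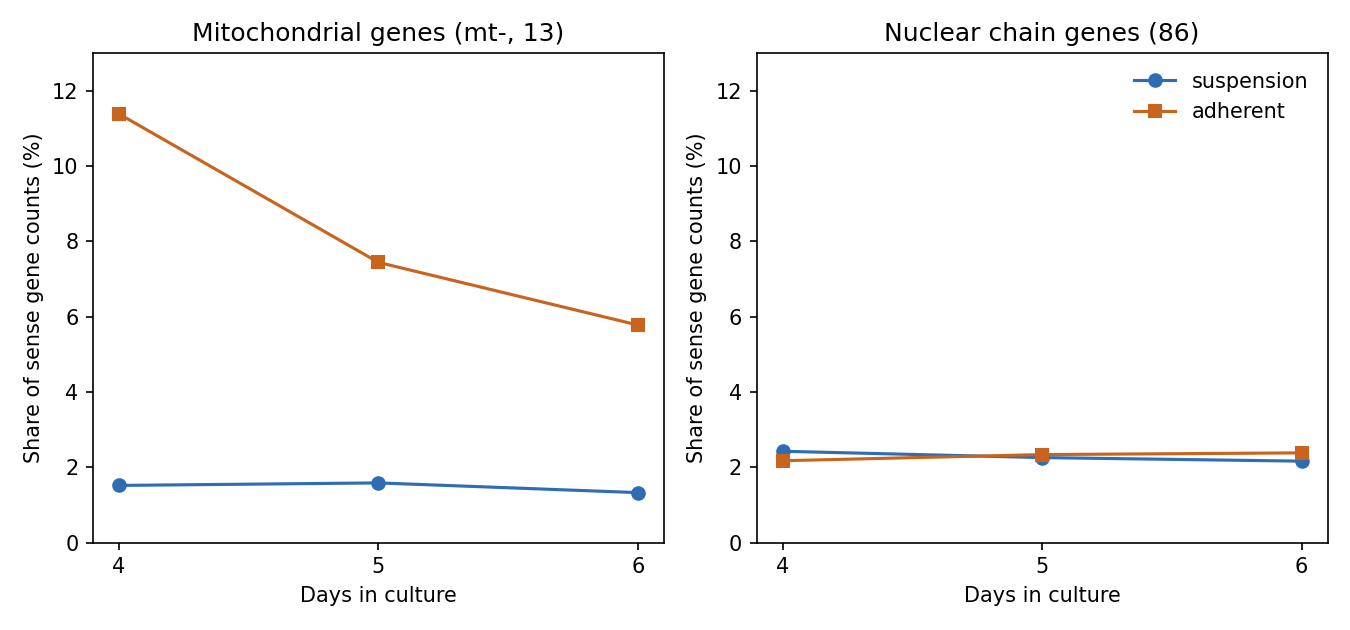
Share of sense gene counts (%) against days in culture for the 13 mitochondrial genes (left) and the 86 nuclear chain genes (right), 1 point per library. Adherent mt- shares lie between 5.78% and 11.4% and suspension shares between 1.33% and 1.58%, while the nuclear shares of the fractions overlap.

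The ratio of mt- to nuclear counts puts both genomes on 1 scale that does not depend on library scaling. It was 0.626, 0.702 and 0.614 in suspension and 5.24, 3.18 and 2.42 in adherent libraries on days 4, 5 and 6. On each day the adherent ratio was higher, by 8.37-fold on day 4, 4.54-fold on day 5 and 3.95-fold on day 6. The same comparison was made within complexes I, III and IV. For complex V it is not given, since both of its mt- genes are among those in or beside copies. For complex I the ratio was 1.18, 1.35 and 1.16 in suspension and 8.99, 5.55 and 4.22 in adherent libraries. Its level is uncertain, since 62.2% of mt-Nd4 windows have a copy and mt-Nd3 and mt-Nd4l are among the genes in copies. For complex III, with mt-Cytb as its only mitochondrial gene, it was 2.14, 2.28 and 2.04 against 20.7, 11.6 and 8.66. For complex IV it was 0.130, 0.162 and 0.142 against 0.826, 0.547 and 0.453, carried by mt-Co1. The level of this ratio is uncertain, since mt-Co2 and mt-Co3 are among the genes in copies and 51.1% of mt-Co1 windows have one. No library of one fraction reached the range of the other in any of these 3 complexes.

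Gene by gene, the fractions were compared with edgeR's quasi-likelihood test, which called 56.8% of the 14912 tested genes at an adjusted p under 0.05, 27.1% higher and 29.7% lower in suspension. All 13 mt- genes were lower in suspension, with log2 ratios of suspension over adherent from -1.71 to -3.95 and a median of -2.23, beside a median of -0.0025 over all tested genes. Under TMM the typical gene is set near 0, and with plain library totals the median of all genes was at -0.24 and that of the mt- genes at -2.47. For all 13 the 3 suspension libraries lay below the 3 adherent ones, as did those of 34.4% of all tested genes.

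Complex I takes 7 subunits from mitochondrial DNA, all in the membrane arm that pumps protons. mt-Nd1, at the junction with the quinone site, had 3462, 3628 and 3322 CPM in suspension and 24240, 15664 and 12231 CPM in adherent libraries on days 4, 5 and 6. Its log2 ratio was -2.32 ± 0.27 (SE) with an adjusted p of 0.0010 by edgeR's quasi-likelihood test. The adherent values were spread widely over the days and the suspension values were close together. mt-Nd2, a pump subunit, was at 2297 to 2623 CPM in suspension and 8831 to 15173 CPM in adherent libraries (log2 ratio -2.23). For mt-Nd4 the ranges were 2552 to 2967 CPM and 8098 to 14285 CPM (-1.97), and for mt-Nd5 544 to 610.4 CPM and 1783 to 2782 CPM (-1.91). Both are pump subunits related to bacterial antiporters.

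mt-Nd6 is the single protein gene read from the other strand of the circle, and it too was lower in suspension. It had 71.8, 71.9 and 76.8 CPM in suspension and 487, 461 and 345 CPM in adherent libraries on days 4, 5 and 6, a log2 ratio of -2.55 ± 0.16 (SE) with an adjusted p of 0.00034. mt-Nd3 was at 330 to 389 CPM in suspension and 982 to 1836 CPM in adherent libraries. mt-Nd4l rested on 2, 8 and 17 counts in suspension and 82, 39 and 42 in adherent libraries, and its call was lost without the suspension library of day 5 (adjusted p = 0.052).

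mt-Cytb is the cytochrome b of complex III. Its level was 5471, 5360 and 5002 CPM in suspension and 39195, 25294 and 19960 CPM in adherent libraries on days 4, 5 and 6, and the log2 ratio was -2.42 ± 0.27 (SE, adjusted p = 0.00091). Per kilobase of exon, adherent means were 24606 CPM for mt-Cytb, 18159 for mt-Nd1, 11148 for mt-Nd2, 7823 for mt-Nd4, 2138 for mt-Co1, 1175 for mt-Nd5 and 830 for mt-Nd6. The order was the same in suspension, where these means ran from 4613 to 142 CPM per kilobase. On this scale no neighbours overlapped in suspension. mt-Nd4 and mt-Co1 have verbatim copies of 62.2% and 51.1% of windows, so their places in this order are uncertain. Reads of a 3′ kit need not scale with length. Without the division mt-Nd4 (2752 ± 208 CPM) was above mt-Nd2 (2467 ± 164 CPM, SD, n = 3 each) in suspension. This held in each suspension library, although the ranges over the days overlapped. Per kilobase, the adherent ranges over the days overlapped for mt-Cytb and mt-Nd1, mt-Nd1 and mt-Nd2, and mt-Nd2 and mt-Nd4. The other 3 neighbouring pairs did not overlap. These ranges include the change over the days, and within each adherent library the order was the same.

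mt-Co1, the catalytic subunit of complex IV, was the mt- gene with the smallest difference: 945, 1093 and 996 CPM in suspension and 4087, 3046 and 2776 CPM in adherent libraries (log2 ratio -1.71 ± 0.18, adjusted p = 0.00074). mt-Co2, which receives electrons from cytochrome c, was at 1.19 to 1.56 CPM and 4.10 to 8.38 CPM, and mt-Co3 at 1.33 to 1.62 CPM and 3.66 to 7.54 CPM. The ATP synthase genes mt-Atp6 and mt-Atp8 had the lowest log2 ratios, -3.21 ± 0.38 and -3.95 ± 0.44 (SE), on few reads. mt-Atp8 had 4, 3 and 3 counts in suspension and 70, 43 and 39 in adherent libraries. Apart from the 6 genes in or beside near-identical copies, the median log2 ratio of the other 7 mt- genes was -2.23, and all 7 were lower. These 7 are not all free of copies, since 62.2% of mt-Nd4 and 51.1% of mt-Co1 windows have one.

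**Figure D3:**
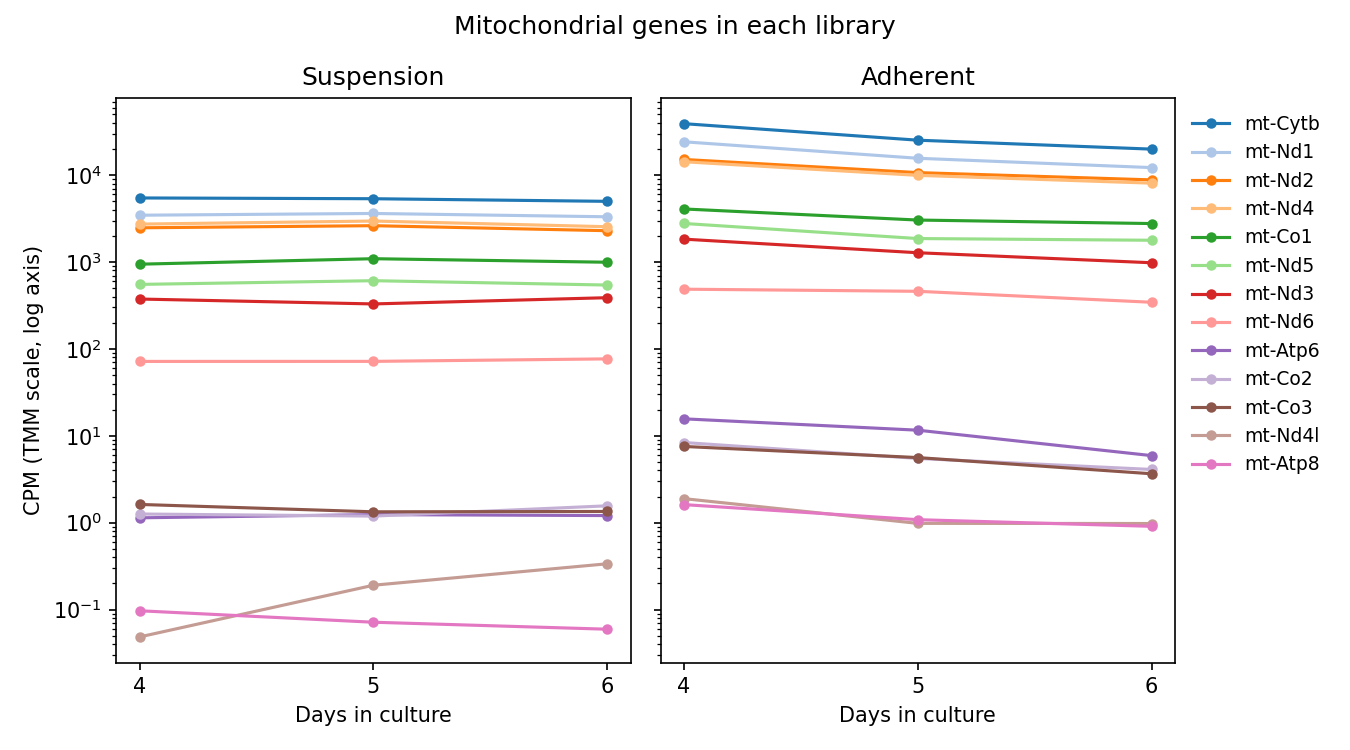
CPM (TMM scale, log axis) of each mitochondrial gene against days in culture in the suspension (left) and adherent (right) libraries, 1 line per gene. All 13 adherent lines are lower on day 6 than on day 4, and the lower group of 5 lines holds genes in or beside near-identical nuclear copies.

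The nuclear members differed far less between fractions. Of 86, 82 passed the filter on low counts: Cox7b2, Cox8b, Cox8c and a further identifier named Atp5o had 3 counts or fewer in all suspension libraries together and did not. Of the 82, 28 were higher and 4 lower in suspension, and 50 did not pass the test. The higher and lower ones are 34.1% and 4.88% of the 82, beside 27.1% and 29.7% of all tested genes. The median log2 ratio of the 82 was 0.198. It fell to -0.03 with plain library totals, where 38 of the 82 were above 0 instead of 63, so the direction of the small differences depends on the scaling. Relative to the median of all genes it was 0.20 under both scalings. Libraries of the fractions did not overlap for 37 members higher in suspension (33.4% of all tested genes) and 6 lower (34.4% of all). Leaving out the suspension library of day 4, 5 or 6 gave 16, 18 or 15 members called higher and leaving out the adherent library of day 5 gave 14. With the day as a replicate block 24 were higher and 2 lower.

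**Figure D4:**
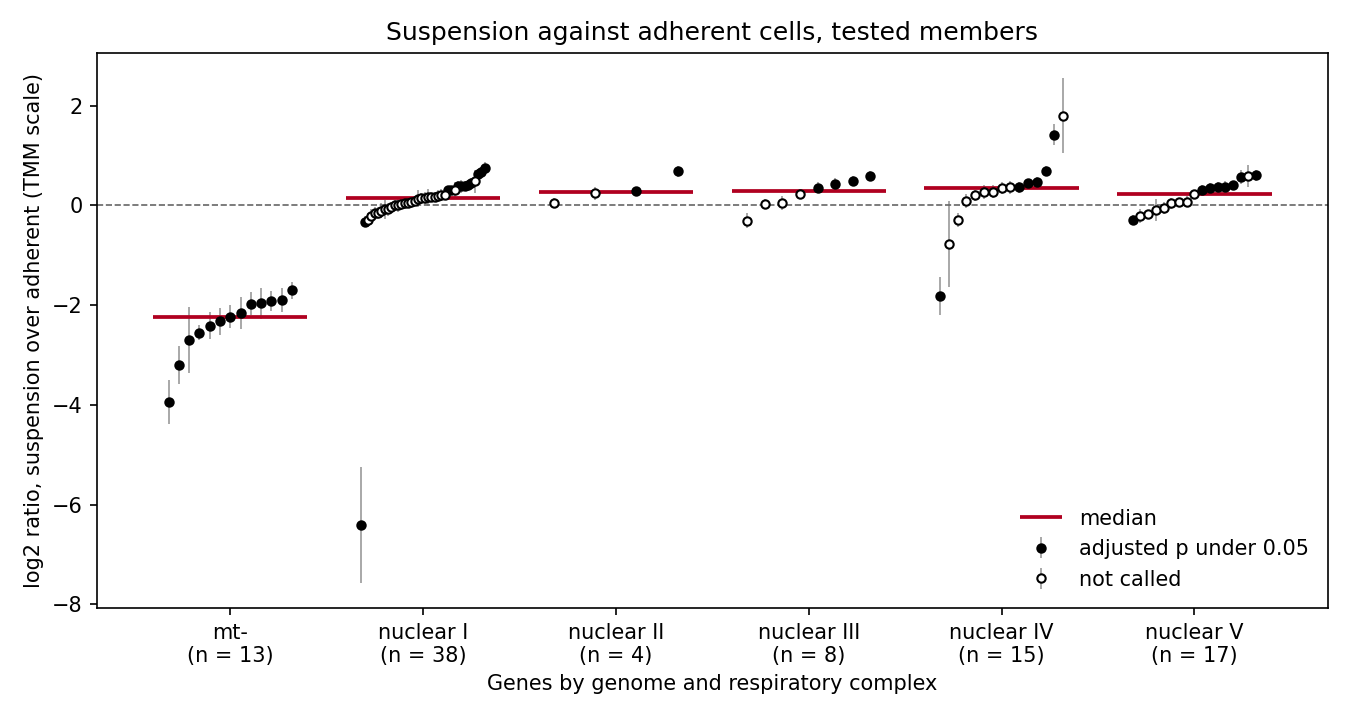
Log2 ratio of suspension over adherent (TMM scale) with its SE for each tested member, grouped by genome and complex, with filled points for an adjusted p under 0.05 and a line at the median of each group. All 13 mt- genes lie between -1.71 and -3.95, and nuclear medians lie between 0.14 and 0.34.

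In nuclear complex I, 10 of 38 genes were higher and 2 lower, with a median log2 ratio of 0.14. The 10 are 26.3%, near the 27.1% of all tested genes, and the 2 are 5.26%, beside 29.7%. Ndufa1, an accessory subunit of the membrane arm, rose to 215, 180 and 224 CPM in suspension from 112, 123 and 135 CPM in adherent libraries (log2 ratio 0.74 ± 0.13, adjusted p = 0.0035). Ndufs1, the largest core subunit with iron-sulphur clusters, was at 53.3 to 62.4 CPM in suspension and 41.2 to 47.3 CPM in adherent libraries (0.45). Ndufa13, an accessory subunit, overlapped between fractions at 503 to 533 CPM in suspension and 407 to 570 CPM in adherent libraries.

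Ndufa4 and Ndufa4l2 carry complex I names, but Ndufa4 is a subunit of complex IV, and Ndufa4l2 is its paralogue, known as a target of hypoxia-inducible factor. Ndufa4 was at 724 to 837 CPM in suspension and 654 to 676 CPM in adherent libraries, with a log2 ratio of 0.21 that did not pass the test (adjusted p = 0.11). Ndufa4l2 (chr10:127514967-127517154, plus strand) had 1, 6 and 4 counts in suspension and 54, 193 and 667 counts in adherent libraries on days 4, 5 and 6. On the CPM scale these are 0.024, 0.143 and 0.079 against 1.25, 4.86 and 15.5. The log2 ratio of -6.41 ± 1.17 (SE, adjusted p = 0.0044) was the lowest of all members. Each adherent day was above the one before it, and no suspension library reached the lowest adherent value.

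Complex II feeds electrons from succinate and is the 1 complex with no mitochondrial subunit. Sdha, its flavoprotein, was at 152, 174 and 176 CPM in suspension and 96.4, 104 and 113 CPM in adherent libraries (log2 ratio 0.68 ± 0.11, adjusted p = 0.0028). Sdhb, the iron-sulphur subunit, was also higher (0.29 ± 0.08, adjusted p = 0.025), a call lost under 6 of 14 alternatives, among them scaling on nuclear genes alone (adjusted p = 0.063) and leaving out any 1 suspension library or the adherent one of day 5, with an adjusted p of up to 0.18. The membrane anchors Sdhc and Sdhd had log2 ratios of 0.05 and 0.24 and did not pass. In complex III, 4 of 8 genes were higher and none lower, beside 27.1% and 29.7% of all tested genes. Uqcrq, a small subunit that binds near cytochrome b, had 418 to 445 CPM against 275 to 301 CPM (0.60, adjusted p = 0.0024), and Uqcrb 403 to 452 CPM against 301 to 365 CPM (0.35). Uqcrb lost its call under 7 of 14 alternatives (adjusted p up to 0.14), among them the day as a replicate block (adjusted p = 0.068), the filter at 10 CPM and leaving out any 1 library but the adherent one of day 6. Uqcrh, the hinge protein, gave -0.31 and did not pass (adjusted p = 0.11), and the core proteins Uqcrc1 and Uqcrc2 gave 0.04 and 0.03.

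Complex IV has nuclear subunits with tissue-specific isoforms, and these isoforms gave its largest differences. Of its 15 tested genes, 5 were higher and 1 lower (33.3% and 6.67%, beside 27.1% and 29.7% of all tested genes). Cox7a1, the form of heart and skeletal muscle, had 9.90, 7.67 and 7.80 CPM in suspension and 2.58, 3.10 and 3.82 CPM in adherent libraries (log2 ratio 1.42 ± 0.22, adjusted p = 0.0024). Its widely expressed partner Cox7a2 was higher by a smaller ratio, with 540 to 592 CPM against 397 to 426 CPM (0.47). Cox6b2, the form best known from testis, went the other way, with 20.2, 14.4 and 10.3 CPM in suspension and 29.6, 63.9 and 64.2 CPM in adherent libraries (-1.81 ± 0.38, adjusted p = 0.0072). Cox6b1, the common form, was at 655 to 725 CPM against 474 to 588 CPM (0.36), a call lost under 7 of 14 alternatives (adjusted p up to 0.13): the day block (0.072), the filter at 10 CPM, and each left-out library except the adherent one of day 6. Cox6a1, the common form of subunit 6a, was higher (0.44 ± 0.09, adjusted p = 0.0060). Its muscle form Cox6a2 had 82, 20 and 30 counts against 6, 20 and 10 and did not pass (adjusted p = 0.081). Of the remaining subunits Cox5a, which joins mt-Co1 early in assembly, was higher (0.68), and the abundant Cox4i1 and Cox8a gave 0.26 and 0.36 without passing (adjusted p = 0.17 and 0.053).

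Cox4i2, the form of subunit 4 that is typical of lung, is the member in which the days differed most between fractions. It had 4.92, 1.17 and 0.297 CPM in suspension and 3.60, 3.30 and 3.96 CPM in adherent libraries. The suspension values fell on each day while the adherent values stayed within a narrow range. In the mean over days the fractions overlapped, with a log2 ratio of -0.77 ± 0.87 (SE, adjusted p = 0.48).

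For ATP synthase 7 of 17 tested nuclear genes were higher and 1 lower (41.2% and 5.88%, beside 27.1% and 29.7% of all tested genes). Atp5k, a membrane subunit that helps synthase dimers form, was at 257 to 290 CPM in suspension and 160 to 193 CPM in adherent libraries (log2 ratio 0.60, adjusted p = 0.0046). Atp5e, of the central stalk, was at 685 to 756 CPM and 422 to 563 CPM (0.56). Atp5h, of the outer stalk, overlapped, with 644 to 675 CPM and 556 to 682 CPM (0.07). Atp5o, the protein that joins that stalk to the catalytic head, was lower at 194 to 218 CPM against 244 to 270 CPM (-0.30, adjusted p = 0.035). That call was lost under 6 of 14 alternatives (adjusted p up to 0.096): the day block (0.061), no low-count filter, and leaving out either library of day 6 or of day 5. Its annotated span overlaps that of the further Atp5o identifier, so its level is uncertain. The catalytic subunits Atp5a1 and Atp5b gave 0.22 and -0.05, both short of the threshold.

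Over the days the adherent mt- levels ran downward. No mt- gene passed edgeR's tests of the common slope or of the difference of slopes, and the adherent slope alone was not tested. All 13 were lower on each adherent day than on the one before, a pattern shown by 21.9% of all tested genes, and 2 of 13 did so in suspension (24.9%). The median fitted slope was -0.45 log2 units per day in adherent and -0.01 in suspension libraries. For mt-Nd1 the slopes were -0.49 ± 0.08 and -0.03 ± 0.08 (SE). As a share of gene counts the mt- genes dropped 1.97-fold from day 4 to day 6 in adherent libraries and 1.14-fold in suspension. Of the 82 nuclear members 44 were higher on each adherent day than on the one before (33.5% of all genes) and 4 were lower, with a median slope of 0.08. In suspension 3 were higher each day (24.1% of all genes) and 16 lower (24.9%), with a median of -0.03.

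With 1 library per fraction and day, the tests concerned the slope common to both fractions and the difference of slopes, not either fraction alone. The slope common to both fractions was called for 0.0134% of tested genes by edgeR's quasi-likelihood test, with no mt- and no nuclear member among them, and at an unadjusted p under 0.05 it took 0 mt- and 4 nuclear genes, beside 3036 of all 14912. The difference of slopes was called for 0.516% of genes (0.0536% above 0 and 0.463% below), with no mt- gene and with Cox4i2, below 0, as the only nuclear member. All 13 slope differences of mt- genes were above 0, as were 5953 of the 14912 genes, and 10 had an unadjusted p under 0.05, as did 2930 of all genes. Their adjusted p ran from 0.12 to 0.97. DESeq2's Wald test called 5 mt- and 3 nuclear genes for that difference, and 0 and 2 for the common slope.

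**Figure D5:**
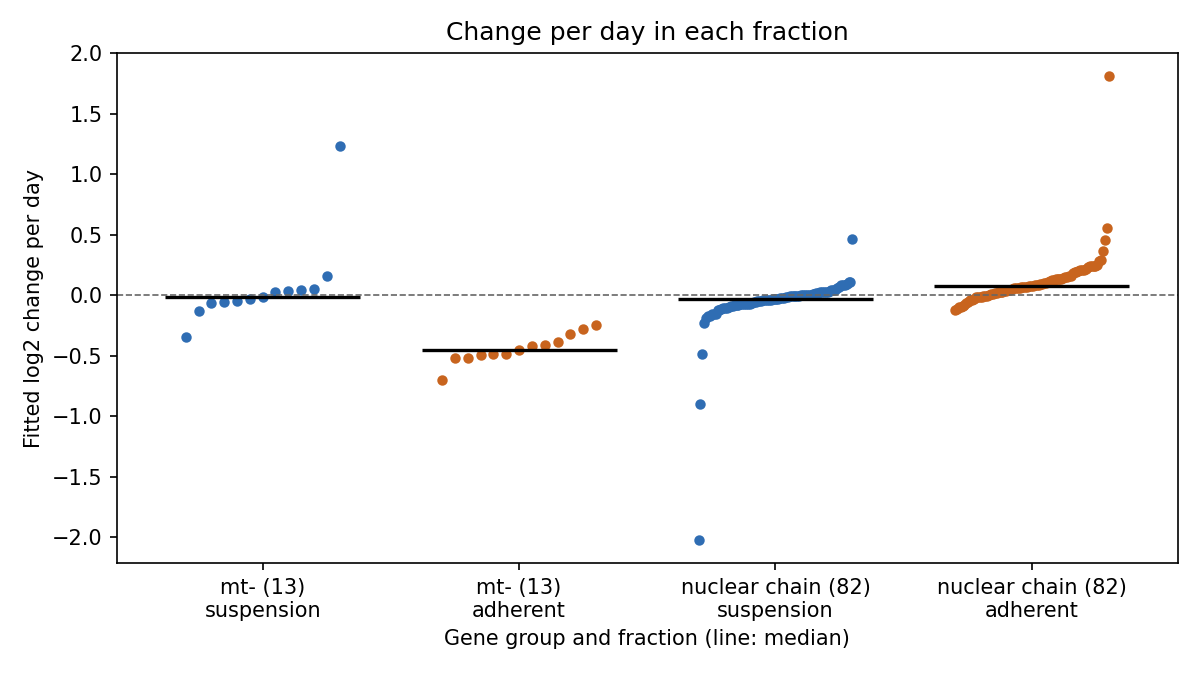
Fitted log2 change per day of each tested member, by gene group and fraction, with a line at the median. All 13 adherent mt- slopes lie below 0 with a median of -0.45, and the other 3 medians lie between -0.03 and 0.08.

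Other RNA moved over the same days in the adherent libraries. Macrophage markers went from 0.335% to 0.796% of gene counts, and the 10 listed immediate early genes from 0.131% to 0.388%, each of the latter rising on each day. Pericyte and smooth muscle markers took 0.300%, 0.0542% and 0.0743%, and endothelial markers 0.0969%, 0.188% and 0.0693%. Malat1 and the other listed nuclear-retained RNA took 1.01%, 1.55% and 1.90%. Between fractions, cytosolic ribosomal protein genes took 14.7% to 16.7% in adherent and 9.16% to 10.5% in suspension libraries, neutrophil markers 0.0251% to 0.103% and 2.40% to 6.79%, and reads in no gene were 23.4% to 24.2% and 16.7% to 16.8% of all reads. The part of these in the mt- differences was not tested.

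Of the machinery that copies and reads mitochondrial DNA 15.4% of genes were called, beside 56.8% of all tested genes. Of 13 tested genes 1 was higher and 1 lower in suspension (7.69% each, beside 27.1% and 29.7% of all). Their median log2 ratio was -0.14. Tfam, which packages mitochondrial DNA and starts its transcription, was at 30.0 to 32.5 CPM in suspension and 33.3 to 35.5 CPM in adherent libraries, and Polrmt, the mitochondrial RNA polymerase, at 5.45 to 5.58 CPM and 5.54 to 6.46 CPM. Neither passed the test (adjusted p = 0.19 and 0.59). Among 17 genes of mitochondrial RNA stability and processing 6 were higher and 1 lower (35.3% and 5.88%). Lrpprc, which stabilises mitochondrial messengers, was higher (36.8 ± 2.65 against 27.0 ± 1.06 CPM, SD, n = 3 each), and Hsd17b10, a subunit of the enzyme that trims transfer RNA ends, was lower (83.5 ± 8.52 against 142 ± 16.1 CPM, SD, n = 3 each).

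Other mitochondrial groups had medians within 0.3 of 0. Their calls stand beside 27.1% higher and 29.7% lower over all tested genes. The mitochondrial ribosome had 18 higher and 6 lower of 77 (23.4% and 7.79%, median 0.11). The assembly factors had 9 and 4 of 44 (20.5% and 9.09%, median 0.07). The citrate cycle had 5 and 2 of 13 (median 0.28), and outer membrane and import genes 1 and 0 of 12 (median 0.10). Of 8 mitophagy genes 2 were higher and 2 lower. Electron carriers and exchangers had 6 higher and 3 lower of 16, with the ADP/ATP exchangers in opposite directions. Slc25a4 had 315, 277 and 256 CPM in suspension and 875, 825 and 688 CPM in adherent libraries (log2 ratio -1.49 ± 0.14, adjusted p = 0.00061). Slc25a5 had 517, 407 and 406 CPM and 256, 207 and 244 CPM (0.91 ± 0.14, adjusted p = 0.0027). Among 10 regulators of mitochondrial genes 4 were higher, among them Nrf1 (0.43) and Esrra (0.65), and Ppargc1a and Ppara were lower on 4 counts or fewer per suspension library.

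Nuclear respiratory factor 1 (NRF1) and ETS family factors such as GABP are known activators of nuclear chain genes. RefSeq promoter windows of GRCm38.p6, 250 bases before to 50 after a start, matched 67 of the 86 nuclear members with 72 windows. The NRF1 core, read as GCGCA, any base and GCGC on either strand, was in 25.0% of member windows and in 4.60% of all 32851 windows, and the ETS core CCGGAAG in 22.2% and 8.86%. In none of the windows did matches of the 2 motifs overlap. Windows of Sdha and Cox6a1 are shown for their repeated cores, which Ndufb4 (3 NRF1 cores, log2 ratio 0.16) and Uqcrc1 (2 cores, 0.04) also held without passing the test of the fractions, with motif matches in capitals (Sdha chr13:74350191-74350490, Cox6a1 chr5:115348909-115349208, both minus strand).
Sdha: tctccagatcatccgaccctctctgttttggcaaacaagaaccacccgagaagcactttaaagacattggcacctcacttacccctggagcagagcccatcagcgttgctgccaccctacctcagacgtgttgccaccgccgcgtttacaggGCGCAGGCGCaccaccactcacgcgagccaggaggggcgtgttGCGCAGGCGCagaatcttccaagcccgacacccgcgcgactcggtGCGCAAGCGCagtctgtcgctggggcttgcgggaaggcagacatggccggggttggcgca
Cox6a1: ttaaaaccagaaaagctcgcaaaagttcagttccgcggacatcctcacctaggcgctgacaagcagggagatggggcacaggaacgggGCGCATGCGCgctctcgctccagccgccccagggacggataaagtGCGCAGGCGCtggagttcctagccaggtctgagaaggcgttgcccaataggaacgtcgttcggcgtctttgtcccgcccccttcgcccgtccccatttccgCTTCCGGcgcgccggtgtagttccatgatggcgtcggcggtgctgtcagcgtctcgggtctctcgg

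The Sdha window holds 3 NRF1 cores and the Cox6a1 window 2 NRF1 cores and 1 ETS core, the latter on the opposite strand. Between fractions the 17 tested members with an NRF1 core had a median log2 ratio of 0.17 and the 48 without one 0.20. With an ETS core the median was 0.33 over 16 genes, of which 8 were higher in suspension and 0 lower. Without it the median was 0.16 over 49 genes, of which 14 were higher and 2 lower. Of all tested genes 27.1% were higher and 29.7% lower.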

How the data were processed

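Each deposited table gives, per gene, read counts of 1 whole library made with a kit for 3′ ends (10x 3' v3, per the labels' protocols). Per the submitters' processing notes bcl2fastq, Cell Ranger, STARsolo and mm10 were used, without versions. The counts by the authors are of reads, with no correction for duplicate molecules. Sense counts were used, since the sense totals exceeded the antisense ones in each library. Rows for unmapped, multimapping, ambiguous and unassigned reads stayed out of library sizes.

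GENCODE M21 (GRCm38) supplied gene names and positions and matched 31011 of 31053 identifiers. In R 4.3.3, edgeR 4.0.16 (on limma 3.58.1) removed low genes by filterByExpr, scaled by TMM and tested 14912 genes by quasi-likelihood for suspension against adherent (4 residual degrees of freedom), for 1 daily slope shared by the fractions (3) and for the difference of slopes (2). P-values were Benjamini-Hochberg adjusted over all tested genes with a threshold of 0.05, and the scripts were tested on simulated counts. The ± after a log2 value is an approximate SE. Copies were found with BLAST 2.17.0 and exact 50-base windows against 141730 transcripts outside the mitochondrial genome.

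Alternatives were counts on either strand, the size factors and the Wald test of DESeq2 1.42.0, no low-count filter, at least 10 CPM in 3 libraries, thinned counts, scaling on nuclear genes, each library left out, and the day as a replicate block. Same-day libraries share a culture day in the labels. Deviations from the fraction means correlated across genes at 0.318, 0.095 and 0.253 within a day and at -0.285 to 0.022 between days, where genes are not independent replicates.

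Members and gene lists were chosen with earlier results of these data known. The named genes were all mt- genes, the 2 nuclear genes of each complex with the highest CPM, the called genes with the highest and the lowest log2 ratio in each complex, and the isoform pairs of complex IV. Others were chosen after their values were seen. No genome or protein sequence was used here. Values of 1 nuclear member are not reported here.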

Additional observations from a re-analysis of the deposited data

Results flagged for a closer look

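Cox4i2 changed differently over the days in the fractions. The slope in suspension minus that in adherent libraries was -2.09 log2 units per day, with an adjusted p of 0.049 by edgeR's quasi-likelihood test of the difference itself. The slope was -2.02 in suspension, where 203, 49 and 15 reads were counted on days 4, 5 and 6, and 0.07 in adherent libraries, with 156, 131 and 170 reads. The value ranged from -2.32 to -1.90 over 12 alternatives, and its call was lost under 8 of them, with adjusted p from 2.9e-05 to 0.70. Markers of epithelial cells fell over the same suspension libraries, from 0.0247% to 0.00357% and 0.0012% of gene counts. Those of pericytes and smooth muscle fell from 0.00962% to 0.00158% and 0.000685%. Fibroblast markers fell from 0.0217% to 0.0150% and 0.00693%, and endothelial ones from 0.00192% to 0.00154% and 0.00116%. Neutrophil markers rose from 2.40% to 3.11% and 6.79%, and macrophage and erythroid markers went in no single direction. In adherent libraries pericyte and smooth muscle markers took 0.300%, 0.0542% and 0.0743%. The part of these changes in the result was not tested.

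Reads on the strand opposite to mt-Nd6 were not part of its main comparisons, only of the alternative with counts on either strand. They outnumbered its sense reads in each library. Antisense counts were 35617, 42360 and 44249 in suspension and 167528, 117305 and 113543 in adherent libraries on days 4, 5 and 6. The ratio of antisense to sense was 12.5 ± 1.38 in suspension and 7.34 ± 0.81 in adherent libraries (SD, n = 3 each), and the ranges of 11.4 to 14.0 and 6.41 to 7.93 did not overlap. The opposite strand is that of mt-Nd5, which ends inside mt-Nd6 at chrM:13565, and of mt-Cytb. Over all other mt- genes antisense counts were 2.47 ± 0.32 per 100 sense mt- counts in suspension and 2.50 ± 0.24 in adherent libraries (SD, n = 3 each).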

How the results depend on the processing

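All 13 mt- genes were called lower in suspension under every alternative in which they were tested, except mt-Nd4l without the suspension library of day 5 (adjusted p = 0.052), and 8 were tested and called with at least 10 CPM in 3 libraries. That filter left 5106 calls over all genes, 14 nuclear members higher and 7 lower, with a nuclear median of 0.067. Without a low-count filter 2 nuclear members were lower, and 2 with the day as a replicate block, which left 24 higher and 13 mt- genes lower. Leaving out 1 library gave 14 to 33 nuclear members higher and 2 to 8 lower (8 when the adherent day 4 was dropped, 2 when day 5 or 6 of either fraction was). Ndufa13, not called, changed sign to -0.0036 with DESeq2 size factors, -0.0035 with DESeq2's Wald test, -0.13 at 10 CPM, -0.029 scaled on nuclear genes and ranged from -0.13 to 0.10 with a library left out. Atp5h gave -0.071 and Sdhc -0.089 at 10 CPM, and Atp5h ranged from -0.0057 (without the adherent day 4) to 0.14 with a library left out. The tests over days were unstable. The common slope gave 66 calls without a filter, 5 with thinned counts, 0 scaled on nuclear genes, 1457 with DESeq2's Wald test (2 nuclear) and 0 to 13 with a library left out. The slope difference gave 1006 calls without a filter (3 mt-, 2 nuclear), 1 with thinned counts, 0 scaled on nuclear genes, 1021 with DESeq2's Wald test (5 mt-, 3 nuclear) and 0 to 859 with a library left out (0 without any 1 suspension library, 859 without the adherent library of day 5), with 0 to 2 nuclear members. No nuclear member was called for it with counts on either strand, at 10 CPM, with thinned counts or scaled on nuclear genes, a count of 0 in each. At 10 CPM this includes no test of Cox4i2, which was at 4.92 CPM or less in every library. Leaving out 1 library left 1 residual degree of freedom for the slope difference, against 2 with all libraries. The cause of these changes in the number of calls was not tested. The mt- share ratio of 5.55 ranged from 4.48 to 6.37 with a library left out. It was 5.58 without the 6 genes in or beside near-identical copies, an alternative chosen after seeing the data. That alternative kept mt-Nd4 and mt-Co1, which have verbatim copies of part of their windows. Depth limits mt-Atp8, mt-Nd4l and Ndufa4l2, at 17 reads or fewer in each suspension library.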
